A study of Mus musculus with 6 samples.

Results

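The transcripts of 10 mouse genes were examined, namely the Siglecs Siglec1, Siglece and Cd33 and the paired inhibitory receptors Pirb, Pilra, Lilrb4a, Sirpa, Cd300a, Cd300lf and Cd200r1. They were taken by gene name from a table of 54532 genes, and all 10 were present. The choice was made with earlier results of these data known. Macrophages from wild type (WT) animals and from knockouts of Grn (PGRN KO), the gene of the secreted growth factor progranulin, were compared by RNA sequencing, with 3 libraries in each group (WT replicates 1 to 3 and PGRN KO replicates 4 to 6). The labels give the C57BL/6J strain for both genotypes and the peritoneal cavity as the origin of the cells, and every library came from cells that had been exposed in culture for 6 hours to live Candida albicans, a pathogenic yeast. The ratio of yeast to macrophages is equal numbers in the labels and another one in the text of the study, and so it is not settled. WT libraries are titled as controls but were challenged as well, so genotypes are compared here only under C. albicans and without a baseline. The methods of the study name different suppliers for PGRN KO and WT mice, so genotype and supplier cannot be told apart, and they describe bone marrow-derived macrophages in place of peritoneal ones, so the origin of the cells remains unsettled. The methods call the mice matched for sex and age and give an age for the infection model only. Whether libraries came from separate or pooled animals was not stated in these sources, so p-values measure only the spread between these libraries.

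Siglecs are lectins of the cell surface that bind sialic acid, the sugar that caps many glycans. Most receptors examined here carry short tyrosine motifs in their tails that, once phosphorylated, recruit the phosphatases SHP-1, SHP-2 and SHIP-1 and thereby restrain macrophage activation, whereas Siglec1 lacks such a motif and acts mainly in adhesion and capture. Paired receptors are families in which an inhibitory member stands beside closely related activating members that lack the motif and signal through the adaptors DAP12 (Tyrobp) or FcR gamma (Fcer1g) to the kinase Syk.

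Of the 10 genes, 6 had promoters in the RefSeq table of GRCm38.p6 (Pilra, Pirb, Cd33, Siglece, Cd300a and Cd300lf), each given as 300 bases, from 250 before the transcript start to 50 after it. Each window was searched on both strands for 5 motifs, the PU.1 site GAGGAAGT, the core of the interferon-stimulated response element GAAANNGAA, the AP-1 site TGANTCA, the C/EBP site TTGCNNAA and the MiT/TFE E-box CACGTG. Of 32851 promoters, 3.2%, 8.56%, 7.81%, 10.8% and 7.15%, respectively, held these letters. The windows of 4 genes are shown because their transcripts changed between genotypes, with Cd300lf as the only one that was higher in PGRN KO and Cd33 as a window with none of the motifs. Sequences are written 5′ to 3′ on the strand of the gene, all of them on the minus strand, with motif matches in capitals.
Cd300lf (chr11:115133943-115134242): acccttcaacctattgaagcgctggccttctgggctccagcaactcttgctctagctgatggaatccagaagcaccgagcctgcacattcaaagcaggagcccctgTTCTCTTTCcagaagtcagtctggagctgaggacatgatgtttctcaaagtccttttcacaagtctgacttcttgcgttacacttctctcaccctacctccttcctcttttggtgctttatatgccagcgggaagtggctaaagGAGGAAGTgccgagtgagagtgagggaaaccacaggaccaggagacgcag
Pirb (chr7:3720333-3720632): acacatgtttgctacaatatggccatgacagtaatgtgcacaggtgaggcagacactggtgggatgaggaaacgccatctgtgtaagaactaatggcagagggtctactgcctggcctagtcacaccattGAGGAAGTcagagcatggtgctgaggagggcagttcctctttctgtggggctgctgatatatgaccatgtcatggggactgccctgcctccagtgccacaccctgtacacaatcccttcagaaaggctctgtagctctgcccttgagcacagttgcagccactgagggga
Pilra (chr5:137836229-137836528): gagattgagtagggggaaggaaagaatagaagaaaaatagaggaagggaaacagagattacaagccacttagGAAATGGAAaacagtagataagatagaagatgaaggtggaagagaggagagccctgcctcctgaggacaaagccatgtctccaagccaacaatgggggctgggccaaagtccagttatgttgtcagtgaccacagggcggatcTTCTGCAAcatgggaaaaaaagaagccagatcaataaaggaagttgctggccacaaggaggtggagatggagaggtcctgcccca
Cd33 (chr7:43533122-43533421): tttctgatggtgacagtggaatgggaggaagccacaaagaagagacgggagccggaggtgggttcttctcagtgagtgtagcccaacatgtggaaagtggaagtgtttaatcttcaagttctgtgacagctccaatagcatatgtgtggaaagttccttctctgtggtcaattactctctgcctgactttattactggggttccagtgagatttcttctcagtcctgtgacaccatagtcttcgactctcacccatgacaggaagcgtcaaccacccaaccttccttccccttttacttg

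In the Cd300lf window the PU.1 letters began at position 1, the first transcribed base, and the reverse of the response element core, TTCTCTTTC, began at position -144. Pirb held the PU.1 letters at position -120. In Pilra, GAAATGGAA, a match to the response element core, began at position -178, and TTCTGCAA, the reverse of the C/EBP site, began at position -35. Cd300a held the C/EBP letters TTGCTCAA at position -214, and Siglece, like Cd33, held none of the 5 motifs. The RefSeq window of Cd33 lies inside the gene model of the table, which extends further upstream. These matches describe the letters in 1 window per gene, and no binding was measured.

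The targeted gene was examined first. Grn was at 324, 337 and 325 FPKM (fragments per kilobase of gene model, scaled to the size of the library) in WT replicates 1 to 3 and at 0.0166, 0 and 0.0167 FPKM in PGRN KO replicates 4 to 6, which matches the labels. Libraries held 15996786 to 17551619 counted fragments. All 7 macrophage markers were expressed, including Adgre1, Lyz2 and Cd68. Their summed level, most of it Lyz2, was 7091 to 7423 FPKM in WT and 7235 to 9725 FPKM in PGRN KO. Csf1r and Itgam were lower in every PGRN KO library than in any WT library, whereas Lyz2 and Mertk were higher in every one. Cd68, Adgre1 and Fcgr1 overlapped between the groups. Any part of these marker differences in the values of the 10 genes was not tested. Of 7 markers of large peritoneal macrophages, Prg4, Gata6 and Icam2 had a mean of at least 1 FPKM, whereas Timd4, Alox15, Tgfb2 and Selp stayed at or below 0.204 FPKM in all libraries. Icam2 was at 2.94 to 3.265 FPKM in WT and higher, at 4.494 to 5.428 FPKM, in PGRN KO, whereas Prg4 and Gata6 overlapped. Any part of the Icam2 difference in the values of the 10 genes was not tested. Of the 8 neutrophil markers Ly6g, Elane and Cxcr2 were at 0 in every library, and the summed level, nearly all of it S100a8, was 48.8 to 53.2 FPKM in WT and 21.4 to 26.3 FPKM in PGRN KO. S100a9, Camp, Mpo and Ngp stayed at or below 0.4434 FPKM in all libraries and overlapped between the groups. The lower sum in PGRN KO was thus that of S100a8. Any part of it in the 5 receptors described as lower below was not tested. Epx, Prg2 and Prg3 of the 5 eosinophil markers were at 0 in every library. PGRN KO replicate 6 stood apart from the other libraries, because its deviation from the gene means fell with gene length (Spearman rho across genes -0.471) whereas that of the other 5 libraries rose slightly with it (0.151 to 0.243). The 10 genes and the counts over lists are therefore given with and without this library. All called genes named from the lists also passed without it.

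Levels of the 10 genes spanned a wide range. On the FPKM scale, which corrects for gene length, Sirpa was the most abundant in WT, followed by Lilrb4a, Pilra and Pirb, and the ranges of these 4 did not overlap with each other. Next came Cd33 and Siglec1, whose ranges over the 3 WT libraries overlapped, then Cd300a and Cd300lf, which also overlapped, and last Siglece and Cd200r1, which overlapped as well. In PGRN KO, Sirpa remained first, the ranges of Lilrb4a and Pilra overlapped, Siglec1 and Pirb overlapped, and Cd300lf now lay beside Cd33 and above Cd300a. Siglece was last in PGRN KO, below Cd200r1, with no overlap between them.

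**Figure D1:**
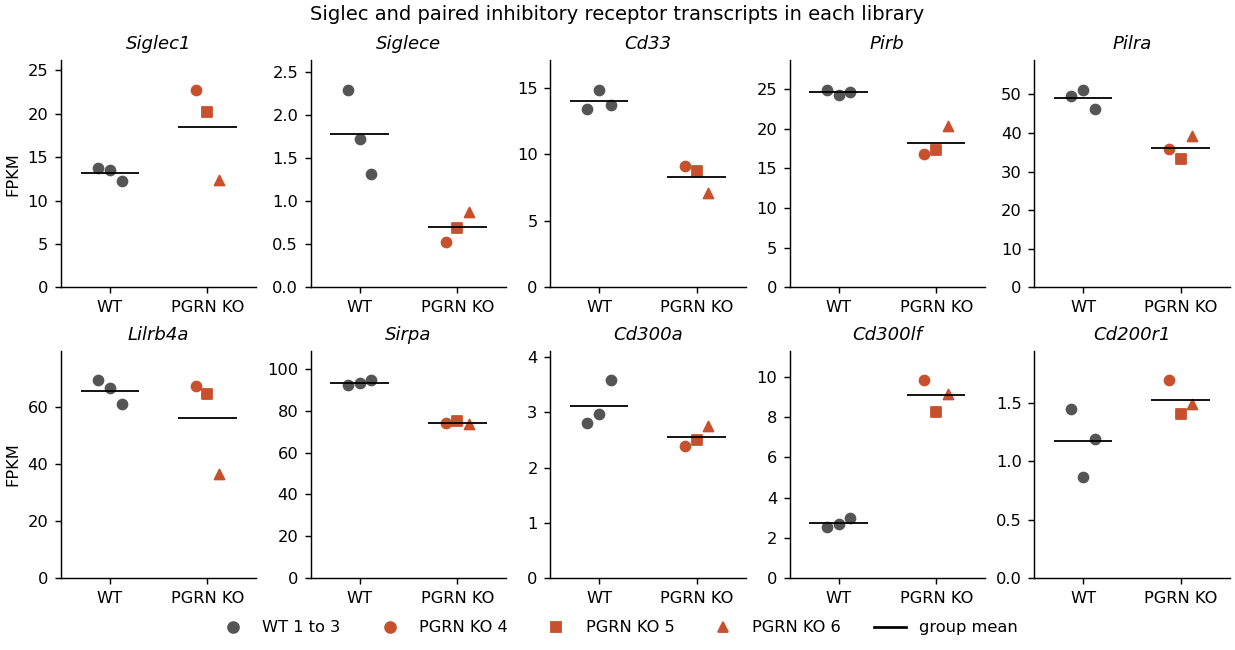
FPKM (linear axes from 0) of the 10 genes in each library, with grey circles for WT replicates 1 to 3, orange symbols for PGRN KO replicates 4 to 6 and a line at each group mean. Cd300lf lies at 8.25 to 9.81 FPKM in PGRN KO against 2.53 to 2.98 in WT, Cd33, Siglece, Pirb, Pilra, Sirpa and Cd300a lie lower in every PGRN KO library than in any WT library, and PGRN KO replicate 6 lies apart from replicates 4 and 5 for Siglec1 and Lilrb4a.

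Genotypes were compared by limma on log2(FPKM + 1) over 8882 genes with a mean of at least 1 FPKM, with p-values adjusted over these genes by the Benjamini-Hochberg method and a threshold of 0.05. On this scale the fold change of a gene near 1 FPKM is understated. All 10 genes were tested, and 6 passed the threshold, of which Cd300lf was significantly higher in PGRN KO and Cd33, Siglece, Pirb, Pilra and Sirpa were significantly lower. Of all tested genes 24.2% passed, 10.4% higher and 13.8% lower in PGRN KO. That split depended on the scaling, with 921 genes higher and 1230 lower here against 922 higher and 608 lower on a TPM scale. Under that scale 5 of the 10 genes passed, 1 higher and 4 lower, against 17.2% of all tested genes. WT and PGRN KO values were separate, without overlap, for 7 of the 10 genes, against 48.8% of all tested genes. The median log2 fold change was -0.30 over the 10 genes and -0.03 over all tested genes. Without PGRN KO replicate 6, 7 of the 10 genes passed, 2 higher and 5 lower, against 41.3% of all tested genes. As in any bulk sample, fewer cells of a type and less RNA per cell cannot be told apart.

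**Figure D2:**
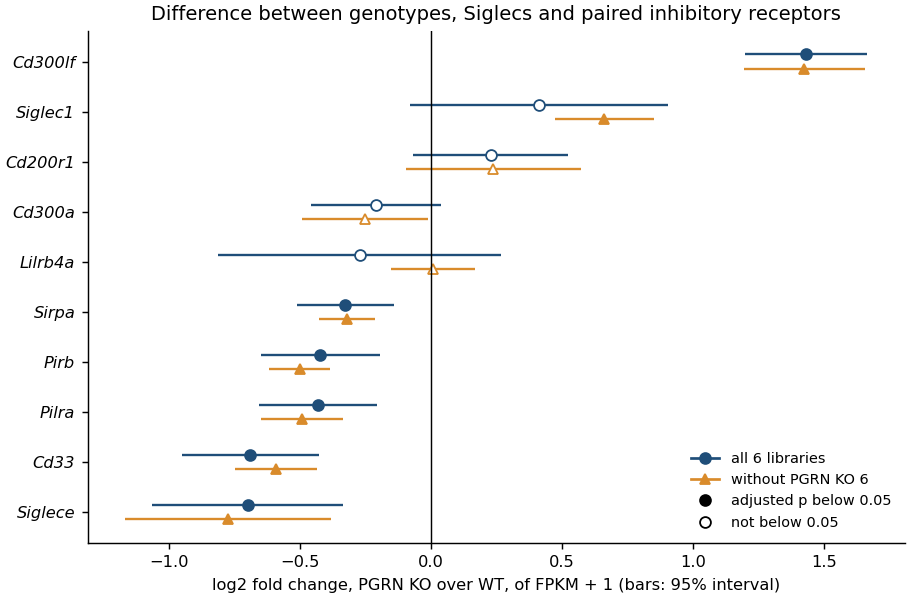
Log2 fold change of FPKM + 1, PGRN KO over WT, for the 10 genes, with bars for the 95% interval, blue circles for all 6 libraries, orange triangles without PGRN KO replicate 6 and filled symbols for an adjusted p below 0.05. Cd300lf stands at 1.43, 5 genes lie between -0.70 and -0.33 with filled symbols, and Siglec1 changes from open to filled when replicate 6 is left out.

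Cd300lf (ENSMUSG00000047798, GRCm38 chromosome 11, 115116214 to 115133992), an inhibitory receptor for phosphatidylserine and ceramide and the entry receptor of murine norovirus, showed the largest difference among the 10 genes. It was at 2.53, 2.68 and 2.98 FPKM in WT replicates 1 to 3 and at 9.81, 8.25 and 9.15 FPKM in PGRN KO replicates 4 to 6. Every PGRN KO library was above every WT library, with group means of 2.73 ± 0.230 and 9.07 ± 0.785 FPKM (SD, n = 3 each) and a ratio of 3.32. The log2 fold change was 1.43 ± 0.10 (SE, limma adjusted p = 0.0012), with a 95% interval of 1.2 to 1.67. It was 1.42 without PGRN KO replicate 6, and Cd300lf passed the threshold in all 18 alternative fits, with limma adjusted p-values of 2.8e-05 to 0.014. These values rest on 204 to 875 fragments per library. Of the 31-base words in its transcripts 4.73% also occur in other genes, first of all in its activating relative Cd300ld. Rab37, which overlaps it on the opposite strand, averaged 0.0518 FPKM. Cd300lf lies 12.7 Mb from Grn on the same chromosome, and any part of that position in the difference was not tested.

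Mast cells, which also carry CD300 receptors, left a trace in these libraries. The summed level of the 7 mast cell markers was 9.19 to 12.6 FPKM in WT and 17.7 to 23.6 FPKM in PGRN KO. Tpsb2, Cma1, Cpa3 and Mcpt4 were higher in every PGRN KO library than in any WT library, whereas Hdc, the most abundant of the list in all libraries, and Kit overlapped between the groups. Ms4a2, which encodes the beta chain of the IgE receptor of mast cells, was at 0 in all libraries. Whether these cells had a part in the higher Cd300lf, or in the values of Cd300a, Lilrb4a and Cd200r1, was not tested.

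Cd300a (chromosome 11, 114890041 to 114904654), the other inhibitory CD300 receptor, which binds phosphatidylserine and phosphatidylethanolamine, did not pass the threshold. It was at 2.81, 2.97 and 3.58 FPKM in WT and at 2.40, 2.50 and 2.76 FPKM in PGRN KO. The PGRN KO libraries were all below the WT libraries, but the gap was narrow. The log2 fold change was -0.21 ± 0.11 (limma adjusted p = 0.182), and the 95% interval of -0.46 to 0.04 includes no difference. It was -0.25 without PGRN KO replicate 6. Cd300a passed in 0 of 17 alternative fits.

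Among the Siglecs, Cd33 (chromosome 7, 43524216 to 43544428), a Siglec of myeloid cells, was at 13.4, 14.8 and 13.7 FPKM in WT and at 9.14, 8.73 and 7.10 FPKM in PGRN KO. The groups were clearly apart, and the lowest PGRN KO value was that of replicate 6. The mean fell from 13.98 ± 0.751 to 8.32 ± 1.08 FPKM, for a log2 fold change of -0.69 ± 0.11 (95% interval -0.95 to -0.43, limma adjusted p = 0.0073). Without PGRN KO replicate 6 it was -0.59, and Cd33 passed in all 18 alternative fits.

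Siglece (chromosome 7, 43651070 to 43660161), an inhibitory Siglec of mouse myeloid cells whose tail carries the tyrosine motif, was a low-abundance transcript. WT replicates 1 to 3 had 2.30, 1.72 and 1.32 FPKM and PGRN KO replicates 4 to 6 had 0.531, 0.686 and 0.876 FPKM, from 17 to 71 fragments per library. No PGRN KO library reached the lowest WT library, and the mean fell from 1.78 ± 0.491 to 0.698 ± 0.173 FPKM, a ratio of 0.392. On the log2(FPKM + 1) scale the difference was -0.70 ± 0.15 (95% interval -1.06 to -0.34, limma adjusted p = 0.0195), and with a pseudocount of 0.01 in place of 1 it was -1.33. Without PGRN KO replicate 6 it was -0.78. The call was lost, with limma adjusted p-values of 0.0505 to 0.0712, when WT replicate 1, WT replicate 2, PGRN KO replicate 4 or PGRN KO replicate 5 was left out.

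Siglec1 (chromosome 2, 131069220 to 131086765), the sialoadhesin of resident macrophages and a gene known to be induced by interferon, turned on 1 library. It was at 13.8, 13.6 and 12.3 FPKM in WT and at 22.8, 20.2 and 12.4 FPKM in PGRN KO. PGRN KO replicates 4 and 5 were above all WT libraries, whereas replicate 6 lay within the WT range. Over all 6 libraries the log2 fold change was 0.41 ± 0.21 (95% interval -0.08 to 0.91, limma adjusted p = 0.187). Without PGRN KO replicate 6 it was 0.66 (limma adjusted p = 0.0020), and with each library corrected for gene length over all 6 libraries it was 0.51 (limma adjusted p = 0.0449). After that correction 7 of the 10 genes passed, against 31.7% of all tested genes. The 16 interferon-stimulated reference genes, listed for comparison with Siglec1, included 11 that were significantly higher and 0 that were lower. Of all tested genes 10.4% were higher and 13.8% were lower. The median log2 fold change of the list was 0.79. Mx1, an antiviral GTPase, had the largest log2 fold change of the list at 1.91. Without PGRN KO replicate 6, 11 were higher and 0 were lower, while 41.3% of all tested genes passed. Any part of interferon in the Siglec1 values was not tested.

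PGRN KO replicate 6 was examined further because Siglec1 and Lilrb4a depended on it. In the bin of 6950 to 9212 bases that holds Siglec1 (7143 bases), tested genes in replicate 6 differed from the mean of replicates 4 and 5 by a median of -0.24 on the log2(FPKM + 1) scale, whereas Siglec1 differed by -0.75. In the bin of Lilrb4a (5227 bases) the median was -0.05 and Lilrb4a differed by -0.84. Both genes were thus further from replicates 4 and 5 than the median of genes of like length, while the other 8 genes differed by -0.30 to 0.24.

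**Figure D3:**
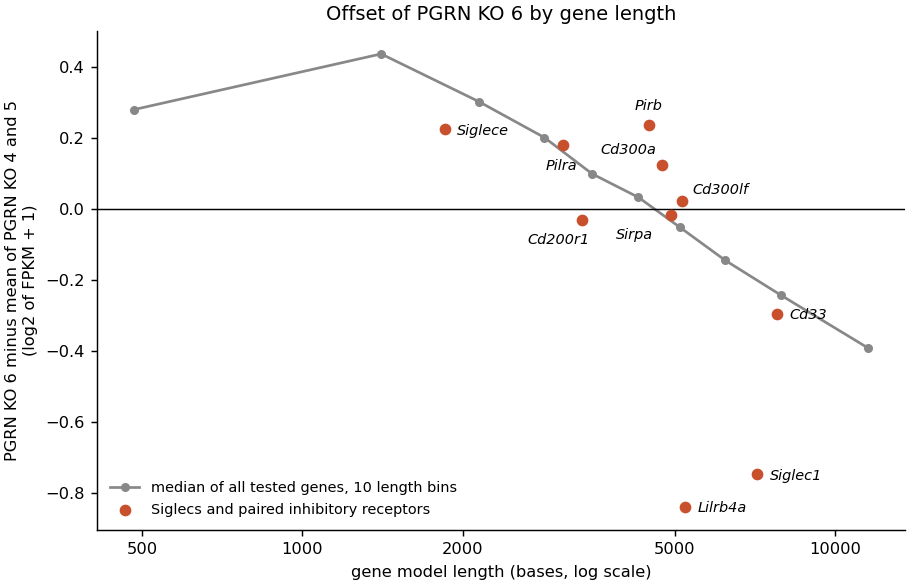
Difference between PGRN KO replicate 6 and the mean of replicates 4 and 5 (log2 of FPKM + 1) against gene model length (bases, log axis), with grey points for the medians of 10 bins of all tested genes and orange points for the 10 genes. The medians run from 0.44 at 943 to 1776 bases to -0.39 in the longest bin, and Siglec1 and Lilrb4a lie far below them.

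Cd22, a Siglec of B cells and the only 1 of 6 other Siglecs and related lectins that could be tested, was at 4.43, 4.63 and 4.48 FPKM in WT and at 7.19, 7.07 and 6.77 FPKM in PGRN KO. It was significantly higher in PGRN KO, by 0.54 on the log2 scale (limma adjusted p = 0.0056), and by 0.56 without PGRN KO replicate 6. The 5 B cell markers were all higher in every PGRN KO library, and their summed level moved with it, from 1.5 to 2.5 FPKM in WT to 6.62 to 8.92 FPKM in PGRN KO, and their part in Cd22 was not tested.

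Sirpa (chromosome 2, 129592835 to 129632228), the receptor for the don't-eat-me ligand CD47, was at 92.1, 93.3 and 94.6 FPKM in WT and at 74.1, 74.9 and 73.6 FPKM in PGRN KO. Libraries within a group were almost alike, and the groups were apart. The mean fell from 93.3 ± 1.22 to 74.2 ± 0.696 FPKM, and the log2 fold change was -0.33 ± 0.08 (95% interval -0.51 to -0.14, limma adjusted p = 0.0252). It was -0.32 without PGRN KO replicate 6 (limma adjusted p = 0.0032). When any 1 of the other 5 libraries was left out the call was lost, with limma adjusted p-values of 0.0595 to 0.124, and it was also lost on a TPM scale (0.141).

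Pilra (chromosome 5, 137821952 to 137836281), the inhibitory member of the PILR pair, which binds sialylated O-glycoproteins, was at 49.6, 51.2 and 46.3 FPKM in WT and at 35.9, 33.3 and 39.3 FPKM in PGRN KO. No PGRN KO library reached the lowest WT library. The mean fell from 49.1 ± 2.48 to 36.2 ± 3.0 FPKM, for a log2 fold change of -0.43 ± 0.10 (95% interval -0.66 to -0.20, limma adjusted p = 0.0205) and of -0.49 without PGRN KO replicate 6. Leaving out any 1 of the other 5 libraries ended the call, with limma adjusted p-values of 0.0576 to 0.101. Of its 31-base words 28.5% also occur in other genes, among them Zcwpw1, which overlaps it on the opposite strand and averaged 0.0973 FPKM, and Pilrb1.

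Pirb (chromosome 7, 3711409 to 3720391), the mouse relative of the human LILRB receptors for MHC class I, was at 24.9, 24.2 and 24.7 FPKM in WT and at 16.8, 17.3 and 20.3 FPKM in PGRN KO. WT libraries were tightly grouped and every PGRN KO library was below them. The mean fell from 24.6 ± 0.342 to 18.2 ± 1.88 FPKM, for a log2 fold change of -0.42 ± 0.10 (95% interval -0.65 to -0.20, limma adjusted p = 0.0218) and of -0.50 without PGRN KO replicate 6. Here too the call was lost when any 1 of the other 5 libraries was left out (limma adjusted p = 0.0616 to 0.104). Pirb shares 44.1% of its 31-base words with other genes, mainly the activating Pira genes, so that the split of fragments between them is uncertain.

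Lilrb4a (chromosome 10, 51490956 to 51496611), an inhibitory receptor for which fibronectin and apolipoprotein E are reported ligands, was at 69.4, 66.8 and 61.2 FPKM in WT and at 67.4, 64.7 and 36.5 FPKM in PGRN KO. Values of PGRN KO replicates 4 and 5 were inside the WT range, whereas that of replicate 6 was far below it. The log2 fold change was -0.27 ± 0.23 (95% interval -0.81 to 0.27, limma adjusted p = 0.412), and without PGRN KO replicate 6 it was 0.01 (95% interval -0.15 to 0.17, limma adjusted p = 0.939). Lilrb4a shares 56.1% of its words with other genes, first with its neighbour Lilr4b, so its level is uncertain as well. Lilr4b, at 226, 228 and 196 FPKM in WT and 233, 212 and 189 FPKM in PGRN KO, overlapped between the groups, and the log2 fold change came to -0.04 (limma adjusted p = 0.838).

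Cd200r1 (chromosome 16, 44765736 to 44794978), the receptor for CD200, was at 1.45, 0.868 and 1.19 FPKM in WT and at 1.69, 1.40 and 1.49 FPKM in PGRN KO, from 43 to 98 fragments per library. The groups overlapped, since WT replicate 1 was above PGRN KO replicate 5. The log2 fold change of 0.23 ± 0.13 did not pass (limma adjusted p = 0.220), with a 95% interval of -0.07 to 0.52, and was 0.24 without PGRN KO replicate 6, and Cd200r1 passed in 0 of 17 alternative fits.

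Activating relatives of these receptors were compared next. Of 28 listed genes 24 were in the table and 10 were tested, and in PGRN KO 1 was significantly higher and 5 were lower, with a median log2 fold change of -0.59. Over all tested genes 10.4% were higher and 13.8% were lower. Without PGRN KO replicate 6, 8 of the 10 passed, 1 higher and 7 lower, against 41.3% of all tested genes. The higher one was Cd200r4, a DAP12-linked relative of Cd200r1, at 8.30, 9.46 and 9.19 FPKM in WT and 17.7, 15.0 and 18.4 FPKM in PGRN KO (limma, log2 fold change 0.85, adjusted p = 0.0034).

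In the CD300 family Cd300lf was higher in PGRN KO, whereas 2 of its relatives were significantly lower. Cd300ld, an activating receptor that pairs with FcR gamma, was at 51.7, 47.7 and 51.8 FPKM in WT and at 27.0, 29.8 and 25.1 FPKM in PGRN KO (limma, log2 fold change -0.86, adjusted p = 0.0024). Cd300lb, which signals through DAP12, fell by 0.88 on the log2 scale (limma adjusted p = 0.0168), a call that was lost without WT replicate 1, WT replicate 3 or PGRN KO replicate 4 (limma adjusted p = 0.0519 to 0.0639). Cd300c2, a further activating relative, had a log2 fold change of -0.40 and did not pass (limma adjusted p = 0.0542), nor did the inhibitory Cd300a, which was also below 0. Within each library the FPKM of Cd300ld was 17.4 to 20.4 times that of Cd300lf in WT and 2.74 to 3.61 times in PGRN KO. All these genes lie in 1 cluster 12.5 to 12.7 Mb from Grn.

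In the SIRP and PILR families, inhibitory and activating members were lower together. Sirpb1c, a DAP12-linked relative of Sirpa, was at 3.72, 3.34 and 3.07 FPKM in WT and at 0.690, 1.23 and 1.27 FPKM in PGRN KO (limma, log2 fold change -1.09, adjusted p = 0.0037). It shares 67.3% of its words with other genes, chiefly Sirpb1b. Pilrb1, the activating partner of Pilra, was at 9.68, 11.6 and 9.68 FPKM in WT and at 4.40, 4.99 and 6.77 FPKM in PGRN KO (limma, log2 fold change -0.84, adjusted p = 0.0107, and 0.0504 without WT replicate 2), and Pilrb2 fell by 0.72 on the log2 scale (limma adjusted p = 0.0039). Pilrb1 and Pilrb2 share 50.1% and 48.2% of their words with other genes, chiefly each other, so the split of fragments is uncertain. The ratio of Pilrb1 to Pilra was 0.195 to 0.227 in WT and 0.123 to 0.172 in PGRN KO, with no overlap. That of Sirpb1c to Sirpa was 0.0325 to 0.0404 in WT and 0.00931 to 0.0173 in PGRN KO. Ratios of Pilrb2 to Pilra and of Cd300lb to Cd300a were also lower in PGRN KO without overlap. The ratio of Pira2 to Pirb overlapped between the groups. So did that of Cd200r4 to Cd200r1, whose mean was higher in PGRN KO (11.2) than in WT (8.11). These ratios were formed after the values had been seen and were not tested. Pira2, the relative of Pirb, did not pass (limma, log2 fold change -0.46, adjusted p = 0.0715), and 96.7% of its words are shared.

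**Figure D4:**
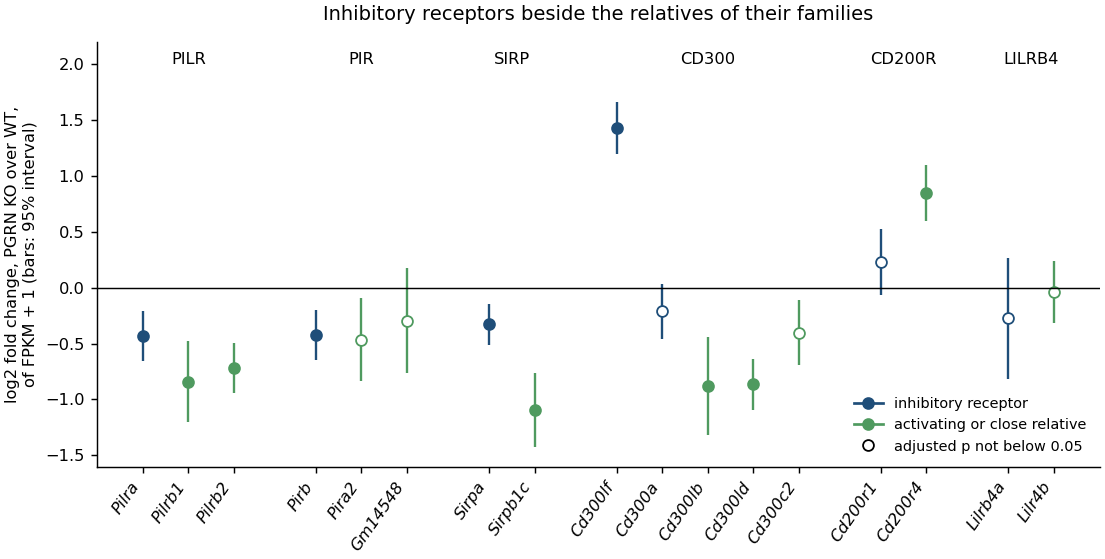
Log2 fold change of FPKM + 1, PGRN KO over WT, by receptor family, with bars for the 95% interval, blue for the inhibitory members, green for activating and other close relatives and open symbols for an adjusted p of 0.05 or more. In the PILR and SIRP families all points are filled and below 0, whereas in the CD300 family Cd300lf is at 1.43 and Cd300ld at -0.86.

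A list of 18 other inhibitory receptors of myeloid cells was examined next. Of these 11 were tested, 8 were significantly lower (13.8% of all tested genes were) and 0 were higher, with a median log2 fold change of -0.53. Fcgr2b, Ceacam1 and Milr1 did not pass, with log2 fold changes of -0.16, -0.45 and 0.04. Among the 8, the calls of Lair1, Slamf8, Havcr2 and Vsir were lost in some fits that left out 1 library (limma adjusted p = 0.0578 to 0.136). On a TPM scale, where 17.2% of all tested genes passed, 5 of the 11 were lower. Without PGRN KO replicate 6, where 41.3% of all tested genes passed, 9 were lower. Clec4a2, the C-type lectin DCIR, was at 4.41, 4.78 and 4.74 FPKM in WT and at 0.908, 0.939 and 1.32 FPKM in PGRN KO (limma, log2 fold change -1.46, adjusted p = 0.0012). Clec12a, an inhibitory receptor for uric acid crystals, was at 7.20, 6.86 and 6.77 FPKM in WT and at 2.20, 2.24 and 2.51 FPKM in PGRN KO (limma, log2 fold change -1.26, adjusted p = 0.0012). Cd72 and Klra2 fell by 0.86 and 0.65 on the log2 scale. The summed level of the 5 dendritic cell markers, most of it Ccr7, moved in the same direction, with Ccr7, Xcr1 and Flt3 lower in every PGRN KO library and Zbtb46 and Clec9a overlapping, from 27.4 to 34.6 FPKM in WT to 15.9 to 19.3 FPKM in PGRN KO, and its part in these differences was not tested.

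A list of 15 ligands and binding partners of the receptors held 10 tested genes, and in PGRN KO 3 were significantly higher and 2 were lower, against 10.4% and 13.8% of all tested genes. The split depended on the processing. It was 5 higher and 1 lower on a TPM scale, with the sum of fragments as library size and under quantile normalization. On these scales 17.2%, 21.1% and 24.6% of all tested genes passed, respectively. Higher and lower numbered 922 and 608, 1179 and 695, and 1069 and 1113 among all tested genes. Without PGRN KO replicate 6, where 41.3% of all tested genes passed, 5 genes of this list were higher and 3 were lower. Cd47, the ligand of Sirpa, was at 29.2, 29.2 and 30.8 FPKM in WT and at 39.2, 36.4 and 42.4 FPKM in PGRN KO (limma, log2 fold change 0.39, adjusted p = 0.0233), and the call was lost when any WT library or PGRN KO replicate 4 was left out (limma adjusted p = 0.0628 to 0.117). Cd200, the ligand of Cd200r1, was at 43.3, 49.1 and 40.8 FPKM in WT and at 60.0, 53.4 and 56.5 FPKM in PGRN KO (limma, log2 fold change 0.35, adjusted p = 0.0484). This call was at the edge of the threshold. It was lost when any 1 of the 5 libraries other than PGRN KO replicate 6 was left out (limma adjusted p = 0.0694 to 0.178), with pseudocounts of 0.1 and 0.01 (0.0503 and 0.0512), without a filter (0.0890) and without a variance trend (0.0514). Thus Cd47 was higher in every PGRN KO library while its receptor Sirpa was lower in every one. For the reported ligands of Lilrb4a, the lipid carrier Apoe rose by 1.58 on the log2 scale (limma adjusted p = 0.0066, and by 1.28 without PGRN KO replicate 6). Fn1, fibronectin, was at 267, 268 and 254 FPKM in WT and at 179, 179 and 97.0 FPKM in PGRN KO and fell by 0.85 (limma adjusted p = 0.0411). Its lowest value was that of PGRN KO replicate 6, and without it the log2 fold change was -0.55. The Fn1 call was lost without any 1 WT library (limma adjusted p = 0.106 to 0.127) and on a TPM scale (0.0935). Il4ra, the chain of the interleukin-4 receptor with which CD300LF associates, fell by 0.44 (limma adjusted p = 0.0117, and 0.0573 to 0.0708 without any 1 WT library).

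Phosphatases and adaptors of inhibitory signalling were examined as a list of 15. Of these 14 were tested and 3 passed, 1 higher and 2 lower, against 24.2% of all tested genes. In the fit without PGRN KO replicate 6, 7 passed, 1 higher and 6 lower, against 41.3% of all tested genes. Ptpn6, which encodes SHP-1, was at 20.4, 19.6 and 20.9 FPKM in WT and at 26.6, 25.4 and 36.4 FPKM in PGRN KO (limma, log2 fold change 0.50, adjusted p = 0.0428, and 0.34 without PGRN KO replicate 6), and the call was lost without any 1 WT library or PGRN KO replicate 4 (limma adjusted p = 0.0634 to 0.14). Ptpn11, which encodes SHP-2, overlapped between the groups (limma, log2 fold change -0.13, 95% interval -0.37 to 0.11, adjusted p = 0.370). Inpp5d, which encodes SHIP-1, differed by -0.30 on the log2 scale (95% interval -0.53 to -0.07, limma adjusted p = 0.0669) and passed without PGRN KO replicate 6 (-0.22, limma adjusted p = 0.0303). The adaptors Sh2b2 and Skap2, the latter a partner of Sirpa signalling, fell by 1.01 and 0.46 (limma adjusted p = 0.0012 and 0.0102). Without WT replicate 1 or 2 Skap2 did not pass (limma adjusted p = 0.0652 and 0.0557), nor did it after the length correction (0.130).

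On the activating side, 12 adaptors and kinases were tested and 4 passed, 1 higher and 3 lower, against 24.2% of all tested genes. Leaving out PGRN KO replicate 6 gave 5, 1 higher and 4 lower, against 41.3% of all tested genes. On a TPM scale 2 passed, both lower, against 17.2% of all tested genes. Tyrobp and Fcer1g, the adaptors that most activating relatives need, did not pass, with log2 fold changes of 0.20 (limma adjusted p = 0.450) and 0.11 (limma adjusted p = 0.605), and both turned below 0 without PGRN KO replicate 6 (-0.01 and -0.04). Vav1, the exchange factor downstream of Syk, was at 55.4, 53.8 and 58.0 FPKM in WT and at 25.2, 24.6 and 28.0 FPKM in PGRN KO (limma, log2 fold change -1.08, adjusted p = 0.0012). Syk itself was at 87.9, 89.4 and 88.0 FPKM in WT and at 67.8, 68.3 and 54.0 FPKM in PGRN KO (limma, log2 fold change -0.48, adjusted p = 0.0239), with -0.37 without PGRN KO replicate 6. The Syk call was lost without any 1 WT library (limma adjusted p = 0.0820 to 0.1) and on a TPM scale (0.117). Plcg2, the phospholipase activated downstream of Syk, fell by 0.72 (limma adjusted p = 0.0031), whereas the kinase Btk rose by 0.29 (limma adjusted p = 0.0373, and 0.0767 to 0.145 when any 1 library other than PGRN KO replicate 6 was left out).

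Genes that make, attach or remove sialic acid, the sugar bound by Siglecs, formed a list of 28. Of these 13 were tested and 2 passed, both lower, against 24.2% of all tested genes, and the median log2 fold change was 0.02. When PGRN KO replicate 6 was left out 4 passed, all lower, against 41.3% of all tested genes, and the median was -0.14. The lysosomal sialidase Neu1 was at 64.6, 67.6 and 67.5 FPKM in WT and at 42.7, 45.2 and 52.7 FPKM in PGRN KO (limma, log2 fold change -0.50, adjusted p = 0.0154), a call that was lost without any 1 WT library or PGRN KO replicate 4 (limma adjusted p = 0.0502 to 0.0718). St6galnac4, a sialyltransferase of O-glycans, fell by 0.33 (limma adjusted p = 0.0312, and 0.0733 to 0.133 when any 1 library other than PGRN KO replicate 6 was left out). At an unadjusted p below 0.05, 6 of the 13 passed. The share of all tested genes at that level was not counted, so no background stands beside this count.

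The 3 genes most like each changed receptor over the 6 libraries were sought among 7769 named protein-coding genes, by the root mean square difference of log2(FPKM + 1) values after centring. For Cd300lf they were Xkr8, a scramblase that exposes phosphatidylserine (difference 0.0905), Csf1, the macrophage growth factor (0.0982), and Tnfsf8 (0.101). Those of Cd33 were Dot1l (0.0435), Ugcg (0.0460), the synthase of glucosylceramide, and Sgms2 (0.0464), a sphingomyelin synthase. Closest to Siglece were Arc, Ltb4r1 and Atf5 (0.109 to 0.121). Pirb was closest to Cnppd1, Emb and St13 (0.0224 to 0.0251), Pilra to Ube2n, Hcar2 and Mafk (0.0255 to 0.0319), and Sirpa to Manba, Slc31a1 and Afg3l2 (0.0226 to 0.0250). This measure favours genes with a like difference between genotypes. The log2 fold changes of Xkr8, Csf1 and Tnfsf8 were 1.39, 1.27 and 1.31, against 1.43 for Cd300lf. Shared regulation was not tested.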

How the data were processed

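RNA of macrophages of WT and PGRN KO mice (3 libraries each) was sequenced after challenge with C. albicans. The authors filtered reads, aligned them to the mouse genome, counted fragments per gene and deposited FPKM for each gene and library. The submitters' processing notes list HISAT2 2.0.5, featureCounts 1.5.0-p3, DESeq2 1.20.0 and the builds mm10 and GRCm38, while the methods of the study name another counter, and use of strand in the counting was not given in the sources used here. Coordinates of the 10 genes equalled those of GENCODE vM21 on GRCm38.

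FPKM times gene length gave whole fragments for 100.0% of values, within 0.001 of a step, and these give the depths. The size by which the authors divided was 0.925 to 1.09 times the sum of fragments, so the values were already scaled between libraries, which bears on every difference. Intervals cover these libraries only, and reads carry no molecular identifiers.

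Values were tested as log2(FPKM + 1) with limma 3.58.1 in R 4.3.3 (two-sided, all 6 libraries, empirical Bayes with a mean-variance trend and without covariates) where the mean FPKM was at least 1, with Benjamini-Hochberg adjustment over 8882 genes and a threshold of 0.05. The scripts were tested on simulated data. A call means an adjusted p below 0.05. Alternatives were pseudocounts of 0.1 and 0.01, no filter, a mean FPKM of at least 5, a TPM scale, the sum of fragments as library size, quantile normalization, no trend, sample quality weights, voom on recovered fragments, loess correction for gene length (span 0.5) with and without PGRN KO replicate 6, a log2 fold change of at least 1, and leaving out each library.

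Named genes were the 10 genes, Grn, the direct partners Cd47, Cd200, Ptpn6, Ptpn11, Inpp5d, Tyrobp and Fcer1g, up to 4 called genes of each list by size of change, and 3 like genes per called receptor. Pilrb1, Pilrb2, Pira2, Lilr4b, Gm14548 and Cd300c2 were added with their values known, as close relatives. Lair1, Slamf8, Havcr2 and Vsir were named for their lost calls. Members and lists were chosen with earlier results of these data known. Marker lists not described elsewhere reached, per library, 2.15 to 3.14 FPKM in WT and 2.75 to 4.81 FPKM in PGRN KO (T cell), 0.429 to 0.626 and 0.726 to 1.25 FPKM (NK cell), 0.254 to 0.319 and 0.119 to 0.330 FPKM (mesothelial cell), 0.864 to 0.877 and 1.86 to 3.43 FPKM (fibroblast) and 0.0365 to 0.205 and 0.160 to 0.245 FPKM (eosinophil).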

Additional observations from a re-analysis of the deposited data

How the results depend on the processing

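No paired analysis was possible because no replicate number occurs in both genotypes. Over 19 alternatives, Cd300lf stayed higher and Cd33 stayed lower in PGRN KO past the threshold in all 18 refits. Of 183 alternative values for the 10 genes, 148 kept direction and side of the threshold, 29 lost the call, 4 gained it and 2 reversed. Among 44 other named genes, 697 of 826 did so, 123 lost the call, 2 gained it and 4 reversed. With a log2 change of 1 or more in size also required, 1 of the 10 genes (0 lower) and 11 of the 40 called list genes remained counted. The changes of Cd33 (-0.69), Siglece (-0.70), Pirb (-0.42), Pilra (-0.43) and Sirpa (-0.33) were smaller. The share of all tested genes under that rule was not counted, so no background stands beside these counts. Leaving out 1 library gave 2 to 7 of the 10 genes (1 to 2 higher, 1 to 5 lower) and 20 to 53 list genes. Both counts were lowest without WT replicate 1, where 2 of the 10 genes passed as they did without WT replicate 2 or PGRN KO replicate 4 or 5, and highest without PGRN KO replicate 6. The share of all tested genes that passed moved likewise, from 8.03% without WT replicate 1 to 41.3% without PGRN KO replicate 6. The log2 fold changes then ranged from 0.25 to 0.66 for Siglec1, -0.82 to -0.57 for Siglece, -0.50 to -0.37 for Pirb, -0.49 to -0.38 for Pilra, -0.34 to -0.32 for Sirpa, -0.43 to 0.0077 for Lilrb4a, -0.040 to 0.21 for Fcer1g and -0.012 to 0.31 for Tyrobp.

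Higher calls numbered 2 with sample quality weights and with the length correction, with or without PGRN KO replicate 6, because Siglec1 passed (0.63, 0.51 and, without it, 0.70). Lilrb4a turned to 0.034 with the correction and without that library, and Fcer1g to -0.013, and with quality weights Fcer1g was at -0.0278. With the sum of fragments as library size 3 genes were lower, since Pirb (-0.33) and Sirpa (-0.23) lost the call, and Sirpa also lost it on the TPM scale (-0.27) and under quantile normalization (-0.29). Without a filter Siglece (-0.70) lost it, with 22912 genes tested. Where a cause is not stated it was not tested. Siglece, Cd300a and Cd200r1 gave no value at a mean FPKM of at least 5. Over all genes 2151 passed, against 1366 without a filter and 4225 with quality weights. Without WT replicates 1, 2 and 3 they numbered 713, 855 and 883, and without PGRN KO replicates 4, 5 and 6 they numbered 1390, 1601 and 3668. With the sum of fragments 1179 were higher and 695 lower, against 921 and 1230. Depth limits Siglece (17 to 71 fragments) and Cd200r1 (43 to 98).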
